A study of Homo sapiens with 6 samples.

Results

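The 32 genes described here are 22 genes of glucose uptake, glycolysis and its lactate and pyruvate outlets, 9 other hypoxia-induced genes, and HIF1A, which encodes the oxygen-regulated subunit of hypoxia-inducible factor 1. They were taken by symbol from a table of read counts for 28675 genes, and all 32 were found there. The libraries came from MDA-MB-231, an established human cell line from a triple-negative breast cancer, one that lacks estrogen receptor, progesterone receptor and HER2 amplification. The labels name 3 libraries "No-load control" (control libraries) and 3 "LARP6 overexpression" (LARP6 libraries). LARP6 belongs to the La-related proteins, which bind RNA. The study asked which RNAs LARP6 binds and how it affects their splicing, and the gene-level tables used here bear on RNA levels only. The sources used here give no vector, promoter or number of clones. Nor do they state whether libraries with the same label were grown as separate cultures, so the spread behind each p-value may be technical.

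Glycolysis splits glucose into pyruvate in a preparatory phase that spends ATP and a payoff phase that yields ATP and NADH. Many cancer cells turn much of the pyruvate into lactate and export it even when oxygen is present. When oxygen is low, HIF-1 alpha escapes prolyl hydroxylation and degradation, pairs with ARNT and binds DNA at sites with the core sequence ACGTG or GCGTG, and raises the transcription of most glycolytic genes together with genes for pH control, blood vessel growth and mitophagy.

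Total counts ran from 29409101 to 33387050 per library. LARP6 was at 42.7 ± 1.85 CPM in the control libraries and 2108 ± 104 CPM in the LARP6 libraries (mean ± SD, n = 3), where CPM is the count scaled to a common library size after TMM scaling, and every library matched its label. Markers of the cell line were present in all 6 libraries (VIM 3112 to 3397 CPM, CD44 702 to 769 CPM), and ESR1 and PGR were at or below 0.221 CPM. ERBB2, which encodes HER2, was at 54.2 to 59.3 CPM, and the epithelial genes EPCAM and CDH1 were at 14.4 to 16.4 and 6.71 to 8.34 CPM. The leukocyte and fibroblast markers PTPRC, CD3E, COL3A1 and DCN were at or below 0.492 CPM, while the endothelial marker PECAM1 was at 4.74 to 7.13 CPM. Mitochondrially encoded genes took 7.41% to 7.91% of counts in control libraries and 7.17% to 7.40% in LARP6 libraries, and the part of this difference in the results below was not tested.

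Glycolysis and hypoxia-induced genes changed little. At a Benjamini-Hochberg adjusted p below 0.05 in edgeR's quasi-likelihood test over 16226 genes, ENO2 rose, PGK1, SLC16A3 and GPI fell, and the other 28 genes were not called. All 32 passed the filter on low counts. Over all genes tested, 395 (2.43%) were called higher and 584 (3.60%) lower, so the 1 of 32 called higher is close to the background share, while the 3 of 32 called lower are 9.38%. Scaled by library size only, the split over all genes was 687 higher and 303 lower, and ENO2 and HK2 were called higher and PGK1 lower among the 32. The called changes ran from -6.49% to 7.52%. The median log2 fold change, LARP6 over control, was -0.03 over the 32 genes and 0.00 over all genes tested. It was below 0 in 21 of the 32 (65.6%) and in 48.8% of all genes. With library size only, which moves every gene by nearly the same amount, it was below 0 in 18 of the 32 and in 39.9% of all genes, with medians of -0.0069 and 0.030. When each library's trend on GC content and length was removed, it was below 0 in 17 of the 32 and in 49.3% of all genes, with medians of -0.0046 and 0.0015.

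The called genes are shown first by the DNA around their starts, because HIF binds at sites with its core sequence. They are also the genes whose levels the results turn on. RefSeq promoter windows of GRCh38.p14 were searched over the 250 bases before each start. The search was for ACGTG and GCGTG on both strands, and the palindrome CACGTG counts as ACGTG on each strand. The stretches below are written 5′ to 3′ on the plus strand, which is the coding strand of all 4 genes, with each match in capitals. CACGT in capitals is ACGTG on the minus strand. PGK1 is shown at chrX:78103998-78104173 and SLC16A3 at chr17:82228792-82229031, both outside the exons of GENCODE v29. ENO2 at chr12:6914452-6914476 and GPI at chr19:34364820-34364844 are short stretches, since their matches lie within an exon of GENCODE v29. Which gene or transcript that exon belongs to was not checked.
PGK1: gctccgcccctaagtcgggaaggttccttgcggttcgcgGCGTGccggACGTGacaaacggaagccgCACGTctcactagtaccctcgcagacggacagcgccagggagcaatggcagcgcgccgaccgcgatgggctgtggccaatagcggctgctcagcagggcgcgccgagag
SLC16A3: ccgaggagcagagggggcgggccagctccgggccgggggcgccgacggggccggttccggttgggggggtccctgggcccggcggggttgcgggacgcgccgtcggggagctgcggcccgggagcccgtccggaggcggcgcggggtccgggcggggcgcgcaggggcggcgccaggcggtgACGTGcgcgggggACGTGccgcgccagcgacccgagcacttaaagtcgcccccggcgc
ENO2: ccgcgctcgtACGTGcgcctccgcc
GPI: actgcctgtaACGTGgaaggtgttc

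The PGK1 stretch holds 3 matches, the SLC16A3 stretch holds 2, and ENO2 and GPI hold 1 each. ENO2, which rose, and the genes that fell each have at least 1 window with ACGTG. For each gene the window with the most ACGTG was chosen, so its presence in every stretch was set by that choice. SLC16A3 also has windows without ACGTG. Windows were matched for 29 of the 32 genes, all but SLC2A3, VEGFA and NDRG1, and several genes have more than 1 window. ACGTG was found in at least 1 window of 18 of these 29 genes (62.1%), against 21.7% of 27305 genes with a window. The palindrome CACGTG, counted within ACGTG, was found for 8 of the 29 (27.6%), against 7.73% of genes. Either core was found for 25 of 29 (86.2%), against 47.4% of genes. Counted by window, ACGTG was in 21 of 56 (37.5%) against 18.5% of 35116 windows, and GCGTG was in 32.1% against 32.2%. By gene, GCGTG was found for 16 of 29 (55.2%), against 36.2%. Genes with several windows have more chances of a match. These genes were listed as HIF targets or their pathway, so the shares describe the list. A match is a run of letters and was not tested for binding.

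PGK1 encodes phosphoglycerate kinase, which makes the first ATP of the payoff phase. PGK1 (ENSG00000102144.15, chromosome X, 77910739 to 78129296, plus strand, GRCh38 in GENCODE v29) was at 855, 903 and 891 CPM in control libraries 1, 2 and 3 and at 825, 825 and 827 CPM in LARP6 libraries 1, 2 and 3. All LARP6 values lay below the lowest control, and they were tighter than the controls. The fitted change was -0.10 ± 0.03 (log2, SE), or -6.49% (95% normal interval from that SE -9.64% to -3.23%, edgeR adjusted p = 0.00755). The call was lost without control library 2 or LARP6 library 2, with an adjusted p of up to 0.126. ENO2 encodes the enolase form known from neurons. ENO2 (ENSG00000111674.9, chromosome 12, 6913745 to 6923698, plus strand) was at 133, 132 and 139 CPM in control libraries and 145, 144 and 145 CPM in LARP6 libraries, again without overlap. The fitted change was 0.10 ± 0.03 (log2, SE), or 7.52% (95% interval 2.96% to 12.3%, edgeR adjusted p = 0.0296). The call was lost without control library 1, control library 2, LARP6 library 1 or LARP6 library 2, with an adjusted p of up to 0.165.

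SLC16A3 encodes MCT4, the lactate exporter of glycolytic cells. SLC16A3 (ENSG00000141526.18, chromosome 17, 82228397 to 82261129, plus strand) was at 683, 676 and 697 CPM in control libraries and 650, 622 and 672 CPM in LARP6 libraries. LARP6 library 3 lay only just below the lowest control. The fitted change was -0.08 ± 0.03 on the log2 scale (SE, edgeR adjusted p = 0.0405). GPI encodes glucose-6-phosphate isomerase, the second step of the preparatory phase. GPI (ENSG00000105220.17, chromosome 19, 34359480 to 34402413, plus strand) was at 415, 397 and 415 CPM in control libraries and 388, 383 and 388 CPM in LARP6 libraries, a fitted change of -0.08 ± 0.03 on the log2 scale (SE, edgeR adjusted p = 0.0481). Both calls stand at the edge of the threshold. With 1 library left out, SLC16A3 was called only without LARP6 library 3 and GPI only without control library 2, with adjusted p of up to 0.457 and 0.221. With offsets for GC content and length, both were lost, SLC16A3 at -0.04 and GPI at -0.06, while PGK1 was at -0.14 and ENO2 at 0.15 and both stayed called.

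**Figure D1:**
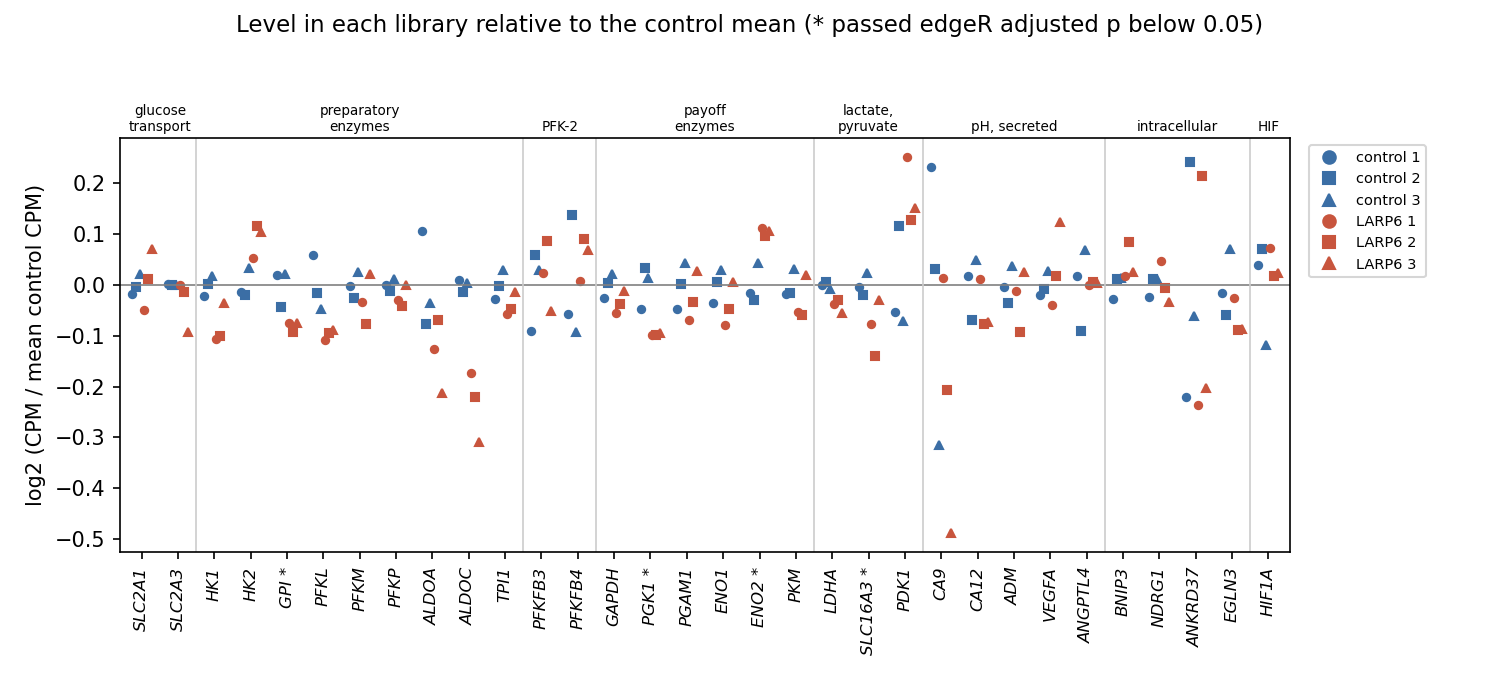
Each point is a library's level of a gene as log2 of CPM over the mean CPM of the control libraries (y axis), for the 32 genes ordered by role (x axis), with control libraries in blue, LARP6 libraries in red and a symbol for each replicate number. Most points lie within a narrow band around 0, the starred genes GPI, PGK1, ENO2 and SLC16A3 passed the test, and CA9, at 12 to 19 counts per library, scatters most.

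Levels differed between steps far more than between groups. On the deposited FPKM scale, which is per gene length, GAPDH, the enzyme that yields NADH, was the most abundant of the 32 at a mean of 2261 and ranked 15 among all genes. ENO1 (726), TPI1 (364), PKM (313) and LDHA (301) followed. CA9, a cell-surface carbonic anhydrase widely used as a hypoxia marker, was the lowest at 0.27. The other low genes were PDK1 (1.00), EGLN3 (1.31) and ALDOA (1.47, discussed below). The 32 genes together took 2.16% ± 0.0188 of all counts in control libraries and 2.14% ± 0.0250 in LARP6 libraries (SD, n = 3 each, exact two-sided permutation p = 0.3, where 0.1 is the smallest that 3 against 3 allows). GAPDH, ENO1, PKM and LDHA made up 72.2% of those counts in both groups. Both shares use ALDOA as listed and leave out the counts of CTD-2515O10.6, the overlapping gene discussed below.

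**Figure D2:**
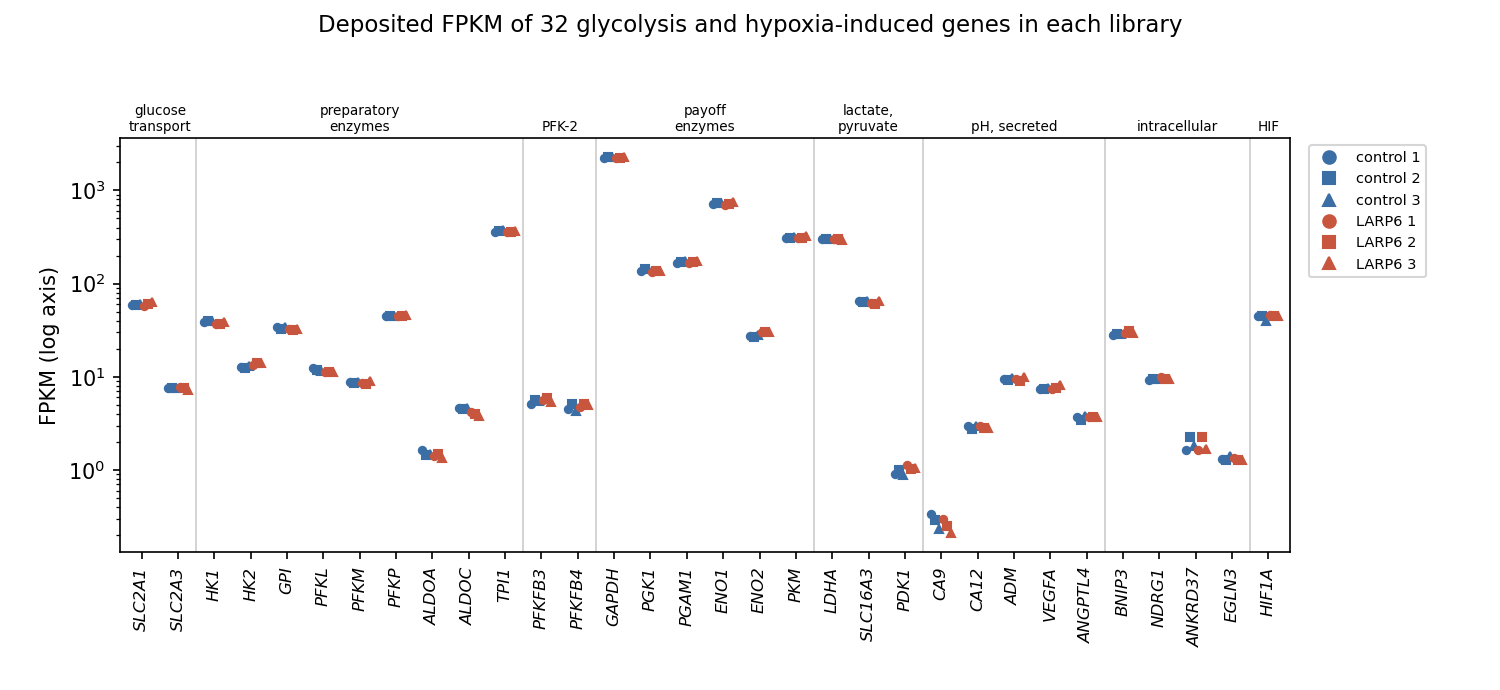
Deposited FPKM on a log axis (y) for the 32 genes by role (x), a point per library with control libraries in blue and LARP6 libraries in red. The genes run from CA9 at 0.27 to GAPDH at 2261, and the colours of a gene lie on top of each other at this scale.

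Of the glucose transporters, SLC2A1 (GLUT1) was at 434 to 472 CPM and SLC2A3 (GLUT3) at 49.6 to 52.8 CPM over the 6 libraries, with log2 fold changes of 0.01 and -0.03 and groups that overlapped. The preparatory enzymes had 8 of 9 log2 fold changes below 0, against 48.8% of all genes, and 6 of 9 with the offsets, against 49.3%. Of the 9, 1 was called lower, against 3.60% of all genes. Hexokinases trap glucose by phosphorylation. HK1, the widely expressed form, was at 278, 283 and 286 CPM in control libraries and 262, 263 and 276 CPM in LARP6 libraries (log2 fold change -0.08 ± 0.03, SE, edgeR adjusted p = 0.0659). HK2, the form that HIF-1 induces, was at 85.3, 85.1 and 88.2 CPM and at 89.5, 93.5 and 92.7 CPM (0.09 ± 0.04, edgeR adjusted p = 0.127). Neither was called, though the groups of each did not overlap. Such a lack of overlap was seen in 10.6% of all genes tested in the higher direction and 11.7% in the lower, and in 4 (HK2, ENO2, PDK1 and BNIP3) and 7 (HK1, GPI, PFKL, ALDOC, PGK1, LDHA and SLC16A3) of the 32.

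Phosphofructokinase commits sugar to glycolysis. PFKL, the liver-type subunit, was at 126, 120 and 117 CPM in control libraries and 112, 113 and 114 CPM in LARP6 libraries (log2 fold change -0.10 ± 0.03, SE, edgeR adjusted p = 0.0651). PFKM and PFKP had -0.03 and -0.02 with overlapping groups. PFKFB3 and PFKFB4, whose products make and break the phosphofructokinase activator fructose 2,6-bisphosphate, had 0.02 and 0.06 and were not called. Aldolase splits the phosphorylated sugar. ALDOC was at 13.9, 13.7 and 13.8 CPM in control libraries and 12.2, 11.8 and 11.1 CPM in LARP6 libraries, with no overlap, and was not called (-0.23 ± 0.08, edgeR adjusted p = 0.0747). TPI1, triose phosphate isomerase, had -0.04 and was not called.

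ALDOA, the main aldolase of most tissues, had only 182 to 218 counts per library, and its level cannot be read from this table. The gene CTD-2515O10.6 (ENSG00000285043.3, chromosome 16, 30053090 to 30070420, plus strand) lies on the same strand and its exons cover 42.3% of the ALDOA exon bases. It had 54006, 53425 and 60923 counts in control libraries and 50088, 52867 and 55991 in LARP6 libraries, 99.6% of the counts of both genes, and ranked 40 among all genes by count. No source used here says how reads in overlapping genes were assigned. With both genes' counts summed, a step chosen after seeing the data, the log2 fold change was -0.07 ± 0.02 (SE, edgeR adjusted p = 0.0695), against -0.13 ± 0.11 (edgeR adjusted p = 0.572) for ALDOA as listed.

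**Figure D3:**
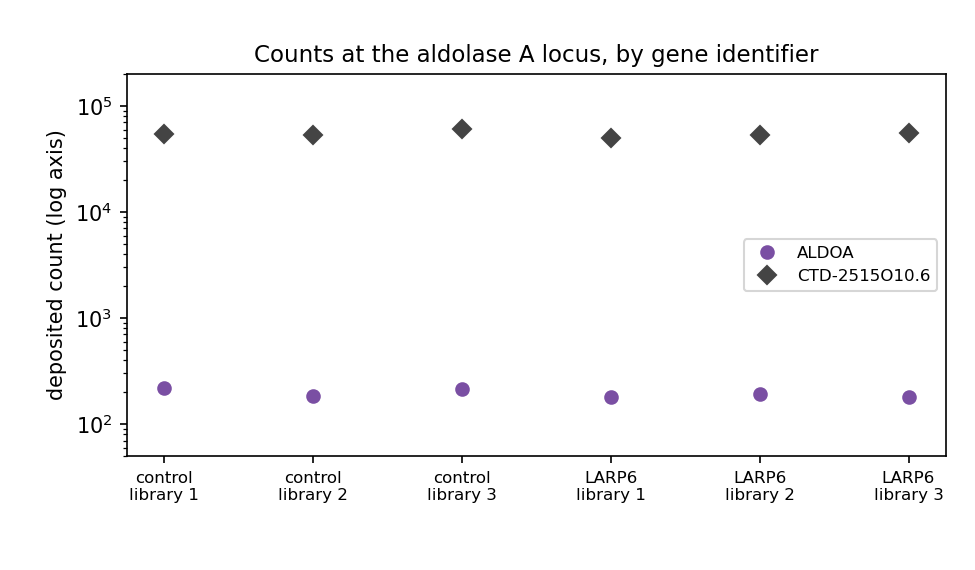
Deposited counts on a log axis (y) in each of the 6 libraries (x) for ALDOA and for CTD-2515O10.6, the same-strand gene that overlaps it. The overlapping gene holds 99.6% of the counts of both in this table.

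Among the payoff enzymes, 5 of 6 log2 fold changes were below 0, against 48.8% of all genes, and 3 of 6 with the offsets, against 49.3%. GAPDH was at 6106, 6234 and 6311 CPM in control libraries and 5985, 6055 and 6164 CPM in LARP6 libraries, overlapping groups whose fitted log2 change of -0.04 ± 0.02 (SE, edgeR adjusted p = 0.465) turned to 0.03 with GC and length offsets. PGAM1, ENO1 and PKM, which encode the mutase, the main enolase and pyruvate kinase, had -0.02, -0.04 and -0.03, with overlapping groups. PGK1 and ENO2 are given above. Many of these enzymes have processed pseudogenes that can take part of their reads, which leaves their exact levels uncertain.

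Pyruvate leaves by several routes. LDHA, which makes lactate, was at 2088, 2096 and 2076 CPM in control libraries and 2032, 2046 and 2008 CPM in LARP6 libraries. The groups did not overlap, yet the difference was small (log2 fold change -0.04 ± 0.02, SE, 95% interval of the change -5.96% to 0.495%, edgeR adjusted p = 0.373). It was called lower in 1 of 22 alternatives, the replicate block with the offsets (adjusted p = 0.0257). PDK1, the kinase that closes the entry of pyruvate into mitochondria, was at 15.1, 17.0 and 14.9 CPM and at 18.7, 17.2 and 17.4 CPM (0.18 ± 0.08, edgeR adjusted p = 0.149). It was the largest shift upward among the 32 and was not called. SLC16A3, the lactate exporter given above, was the called gene of this role.

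Shares within an enzyme were compared as each form's part of the summed FPKM of its family. HK2 made up 24.6%, 24.2% and 24.7% of hexokinase 1 plus 2 in control libraries and 26.6%, 27.4% and 26.3% in LARP6 libraries. ENO2 made up 3.63% ± 0.0728 of enolase 1 plus 2 in control libraries and 3.99% ± 0.120 in LARP6 libraries (SD, n = 3 each). PFKP made up 68.7% ± 0.461 and 69.3% ± 0.0516 of the phosphofructokinase subunits. For each of these 3 shares the groups did not overlap, with an exact two-sided permutation p = 0.1, the smallest that 3 against 3 allows, and p = 0.3 adjusted over the 9 shares tested. The mean FPKM of PFKP itself was 45.13 in control libraries and 45.16 in LARP6 libraries, while that of PFKL was 11.87 and 11.28. The shares of PFKL, PFKM, PFKFB4, SLC2A3 and CA12 overlapped between groups, and the share of ALDOC has no meaning beside the ALDOA count.

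**Figure D4:**
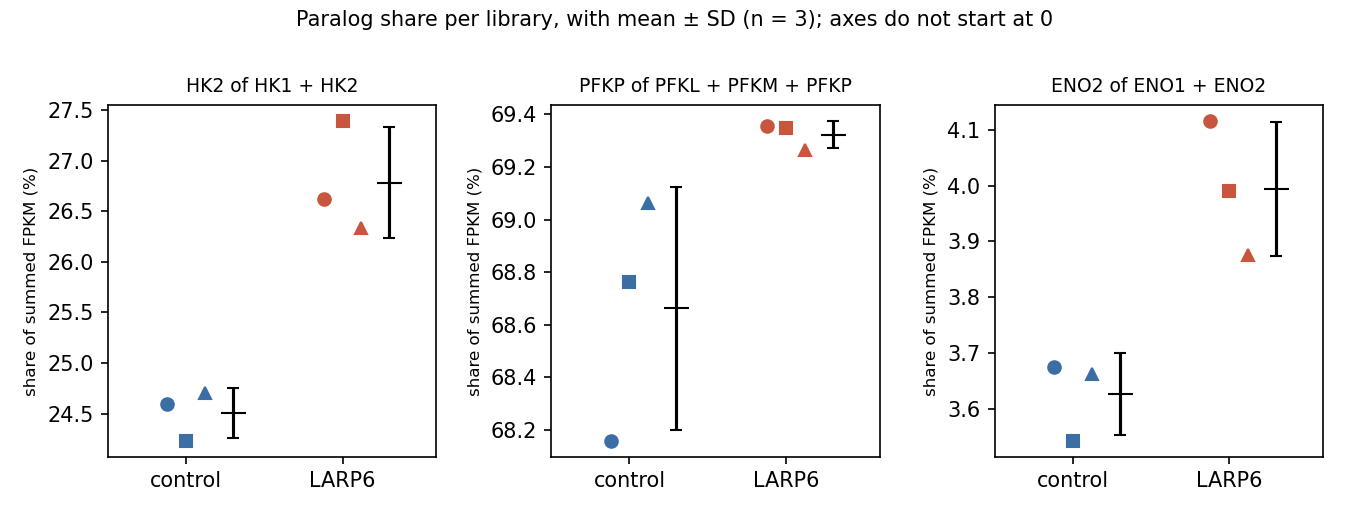
Percent of the summed FPKM of an enzyme family (y) held by HK2, PFKP and ENO2 in control and LARP6 libraries (x), a point per library with the mean and SD (n = 3) beside them, on axes that do not start at 0. HK2 moved from 24.5% to 26.8%, PFKP from 68.7% to 69.3% and ENO2 from 3.63% to 3.99%.

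HIF1A itself was at 261, 266 and 234 CPM in control libraries and 267, 257 and 258 CPM in LARP6 libraries, overlapping groups in which control library 3 was the lowest. Its log2 fold change was 0.04 ± 0.03 (SE, 95% interval of the change -1.84% to 7.51%, edgeR adjusted p = 0.585), and -0.03 with GC and length offsets. HIF-1 alpha is controlled mostly at the protein level, which was not measured. Of its 9 targets outside glycolysis, 0 were called by edgeR, against 2.43% of all genes higher and 3.60% lower, so a count of 0 among so few is near the background. Of the 9, 0 had an unadjusted p below 0.05 in the same test. The share of all genes below that value was not taken, so nothing is read from this count. CA9 had 19, 16 and 14 counts in control libraries and 16, 14 and 12 in LARP6 libraries. The 95% interval of its change ran from -48.2% to 44.4%. ARHGEF39, on the opposite strand, overlaps 38.5% of the CA9 exon bases and UFSP2 35.2% of those of ANKRD37. CSNK1D, also on the opposite strand, overlaps 5.36% of the SLC16A3 exon bases, and RP5-940J5.9 14.2% of those of GAPDH. Without a known strand setting, part of the counts of CA9, ANKRD37, SLC16A3 and GAPDH may belong to the neighbour.

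The secreted factors VEGFA, a vessel growth factor, ADM, the vasodilator adrenomedullin, and ANGPTL4, a lipase inhibitor, had log2 fold changes of 0.04, -0.03 and 0.00. CA12, another carbonic anhydrase, had -0.05. BNIP3, a mitophagy receptor, was at 170, 175 and 175 CPM in control libraries and 176, 184 and 177 CPM in LARP6 libraries, a small separation (0.04 ± 0.03, SE, edgeR adjusted p = 0.469). NDRG1, a stress-response gene, had 0.00, and ANKRD37 and EGLN3, a HIF prolyl hydroxylase, had -0.06 and -0.07. In bulk libraries a lower level in every cell and fewer cells with the transcript cannot be told apart.

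**Figure D5:**
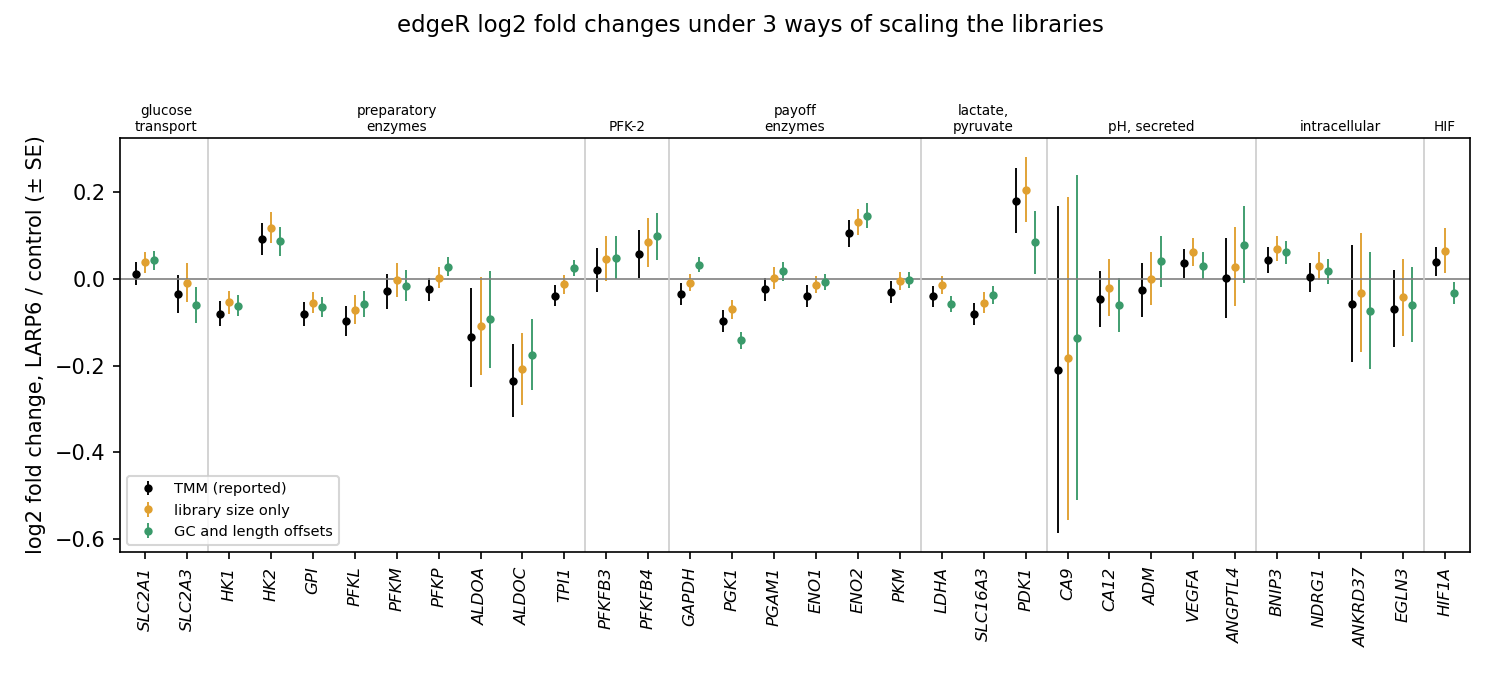
edgeR log2 fold change of LARP6 over control (y, with SE) for the 32 genes by role (x) under TMM scaling, library size only, and offsets for GC content and length. ENO2 stays above 0 and PGK1 below 0 under all 3, whereas GAPDH and HIF1A change sign with the offsets.

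Base composition moved with the fold changes. Longest-transcript GC content had a median of 53.2% over the 32 genes and 48.6% over all genes with a value. Across 16055 genes, which share libraries and are not independent replicates, Spearman's rho between GC content and log2 fold change was -0.33, and it was -0.16 over the 32. PGK1 has 43.3% GC, ENO2 55.0%, GPI 53.1% and SLC16A3 62.6%. The part of GC content in the changes was not tested beyond the offsets.

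Genes next to these in the pathways were read from 4 further lists, whose counts stand beside 2.43% of all genes called higher and 3.60% lower, with a median of 0.00. Of 29 tested other glycolysis and pyruvate genes, 0 rose and 1 fell, a count near the background, with a median of -0.02. It was BSG, which encodes the chaperone basigin that carries MCT1 and MCT4 to the cell surface, at 1222, 1220 and 1263 CPM in control libraries and 1114, 1139 and 1164 CPM in LARP6 libraries (-0.12, edgeR adjusted p = 0.000643). It kept its call with each library left out and lost it with GC and length offsets, at -0.05 (adjusted p = 0.222). Of 23 HIF pathway regulators, 0 rose and 2 fell, with a median of 0.00. EPAS1, which encodes HIF-2 alpha, was at 88.7, 90.4 and 94.1 CPM in control libraries and 81.5, 84.0 and 85.2 CPM in LARP6 libraries (-0.12, edgeR adjusted p = 0.0252). RACK1, a ribosomal scaffold that also binds HIF-1 alpha, had -0.08 (edgeR adjusted p = 0.0458). EPAS1 lost its call in 4 of the 6 fits that leave out a library and RACK1 in 5.

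Of 51 other hypoxia-induced genes, 0 rose and 4 fell, with a median of -0.01, where 2.43% and 3.60% of all genes did. DDIT4, an inhibitor of mTORC1, was at 192, 202 and 202 CPM in control libraries and 170, 170 and 183 CPM in LARP6 libraries. Its change of -12.3% (-0.19 ± 0.03, SE, edgeR adjusted p = 1.31e-06) was called with each library left out and with GC and length offsets. LOXL2, a matrix crosslinking enzyme, had -0.12 (edgeR adjusted p = 0.00224) and lost its call without LARP6 library 2. TFRC, the transferrin receptor, had -0.12 with overlapping groups, and P4HB, a subunit of prolyl 4-hydroxylase, had -0.08, and each lost its call in at least 4 of the 6 fits that leave out a library. Of 24 pentose phosphate and glycogen genes, 0 rose and 2 fell, with a median of -0.04. PGLS, which acts in the oxidative branch of the pentose phosphate pathway, was among them at -0.12 (edgeR adjusted p = 0.0237). With GC and length offsets this list still had 2 genes called, but PGLS was not among them.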

How the data were processed

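Messenger RNA was sequenced from 6 libraries with a stranded kit, per the labels' protocols. The authors deposited read counts per gene and FPKM values per gene, the latter scaled by length and library size. Per the submitters' processing notes, HISAT2 and DESeq2 were used on GRCh38. No source used here names the counter, its strand setting or the annotation release. The deposited counts went into edgeR 4.0.16 (R 4.3.3; expression filter, TMM, robust quasi-likelihood test, no covariate), with p adjusted over 16226 genes. FPKM gave levels and family shares, compared by exact permutation. Alternatives used DESeq2 1.42.0, limma 3.58.1, other scalings and filters, offsets and libraries left out. Scripts were tested on simulated data. The members and lists were chosen with earlier results of these data known. All members are named. Per-library values are given for genes that passed, whose groups did not overlap, the most and least abundant, and HIF1A. From each further list, up to 4 genes past the threshold are named. The values of 1 such gene are not reported here. Replicate numbers were checked. The labels give no pairing by them, and the reported fit has no replicate term.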

Additional observations from a re-analysis of the deposited data

How the results depend on the processing

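Among alternatives to the reported fit, PGK1 was called in 17 of 22, ENO2 in 13, SLC16A3 in 9 and GPI in 7, with the reported sign in all 22 for each. Genes higher and lower were 687 and 303 with library size only and 229 and 350 with GC and length offsets. They were 148 and 295 at an adjusted p below 0.01, and 211 and 400 with DESeq2. On limma with log2(FPKM + 1) above a mean FPKM of 0.1 they were 24 and 37, with a pseudocount of 0.1 they were 26 and 45, and with no filter 1 and 2. In these 3 fits 0 of the 32 genes and 0 of every further list were called. Of the 32, library size only gave 2 higher and 1 lower, no low-count filter gave 0 higher, DESeq2 gave 1 lower, the offsets 1 lower, and an adjusted p below 0.01 gave 0 higher and 1 lower.

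The other glycolysis genes called were 0 with the offsets. HIF regulators called were 1 with RLE scaling, upper-quartile scaling, the CPM filter, DESeq2 and the offsets, and 0 with library size only and at 0.01. Other hypoxia-induced genes called were 2 with library size only and at 0.01. Pentose phosphate and glycogen genes called were 1 with library size only (higher), 1 with DESeq2 and 0 at 0.01. The 32 genes' share of library size, LARP6 minus control, was -0.0543 percentage points on TMM-scaled sizes.

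Leaving out each library in turn gave 175 to 398 genes higher and 281 to 642 lower, 0 to 1 of the 32 higher and 0 to 3 lower. It gave 0 to 2 HIF regulators, 1 to 6 other hypoxia-induced genes and 0 to 3 pentose phosphate and glycogen genes. The difference in the 32 genes' share of counts ran from -0.0300 to -0.00809 percentage points. Family share differences in percentage points ran from -1.99 to -0.970 for ALDOC, 0.218 to 1.82 for CA12, 0.307 to 0.426 for ENO2, 1.96 to 2.49 for HK2, -0.349 to 1.38 for PFKFB4, -1.04 to -0.425 for PFKL, -0.0474 to 0.210 for PFKM, 0.408 to 0.861 for PFKP and -0.640 to 0.0840 for SLC2A3. The cause of these shifts was not tested.

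With the replicate block, 518 of all genes were higher and 827 lower. Under the block, 5 of the 32 genes were lower (HK1 and PFKL were added), as were 7 other hypoxia-induced genes and 4 pentose phosphate and glycogen genes. The replicate block fitted together with the offsets gave 222 genes higher and 383 lower, 0 other glycolysis genes and 1 HIF regulator called. Of the 32, ENO2 was higher and PGK1 and LDHA were lower in that fit, and GPI and SLC16A3 were not called. The numbers pair nothing in the labels. Same-numbered libraries correlated by 0.035, 0.0073 and 0.050 in their deviations from group means, and differently numbered ones by -0.063 to 0.029. A replicate effect shared by the groups was not tested further.

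The summing of overlapping loci was chosen after seeing the data and changed no count of the 32. The offsets were corrected once after their results had been seen, because a first form counted the TMM factors a second time. CA9 was not tested under the filter of CPM above 1 in 3 libraries. Depth limits CA9 most.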
